A study of Saccharomyces cerevisiae with 6 samples.

Results

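The genes of the peroxisome and of fatty acid oxidation were examined in a ThrRS editing-defective yeast strain under heat stress. Members were chosen by gene name. The 39 members, of 7122 genes in the table, were 27 peroxins (genes named *PEX* and a number) and 12 genes of fatty acid oxidation in the peroxisome, *POX1*, *FOX2*, *POT1*, *CTA1*, *ECI1*, *DCI1*, *FAA2*, *PXA1*, *PXA2*, *CAT2*, *TES1* and *ANT1*. RNA was sequenced from 3 *ths1-C268A* and 3 WT samples of *Saccharomyces cerevisiae*, which the study calls biological replicates and which carry the letters A, B and C within a strain. In *ths1-C268A*, Ala replaces the Cys that ThrRS, the threonyl-tRNA synthetase, uses to remove Ser wrongly joined to its tRNA, a point mutation made with CRISPR. The study states that the mutation also makes ThrRS less stable at 37 °C. Loss of editing and lower stability of ThrRS cannot be told apart in these samples. The parent of both strains is BY4741, in which *HIS3*, *LEU2*, *MET17* and *URA3* do not work. Cells grew first in YPD, a rich glucose medium, at 30 °C and then spent 2 h at 37 °C, so that both strains were heat-treated.

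Peroxisomes are organelles bounded by a single membrane, and in yeast they are the only site of fatty acid β-oxidation. Peroxins build them: receptors bind enzymes in the cytosol by short targeting signals, dock at the membrane, release their cargo inside and are pulled out again for another round. The oxidation genes encode the enzymes and carriers that bring fatty acids in, shorten them to acetyl-CoA and detoxify the hydrogen peroxide made on the way. Many oxidation genes are repressed in glucose and induced by oleate through the factors Oaf1 and Pip2, which bind a palindromic site, the oleate response element.

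The deleted genes *LEU2*, *MET17* and *URA3* had no fragment in any of the 6 samples. *HIS3* had 253, 271 and 197 FPKM in *ths1-C268A* (A, B and C), against 91.9, 106 and 86.4 FPKM in WT. *STE2*, the receptor of MATa cells, was at 261 to 355 FPKM over the 6 samples, and *STE3*, its MATα counterpart, at 4.33 to 6.00 FPKM. The values are FPKM, fragments scaled to coding length and to the size of the library. The table held 17806318 to 19114041 fragments per *ths1-C268A* sample and 16597937 to 17761143 per WT sample. A member had 323 to 13003 fragments in a sample, with a median of 1521. limma was fitted to log2(FPKM + 1) of the 6447 genes that averaged 1 FPKM or more, and a gene is called here at a Benjamini-Hochberg adjusted p under 0.05 over all of them. All 39 members passed that filter.

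Matches to the oleate response element are shown first, since more of the oxidation genes than of the peroxins held one. The element was searched as CGGNNNTNA, then 9 to 12 bases of any kind, then CCG, on both strands of the 500 bases before each start codon in R64. Of 12 oxidation genes, 9 (75%) held a match, against 4 of 27 peroxins (14.8%) and 112 of 5978 promoters of protein-coding genes (1.87%). The consensus was itself worked out on promoters of genes of this kind, so that its presence in them is a description and no test. Capitals mark the fixed letters of the consensus, coordinates are those of R64, and each sequence is written 5′ to 3′ on the strand named.
POT1 (chrIX:41610-41632, minus strand): CGGggaTaAtagtattaacaCCG
CTA1 (chrIV:969866-969889, minus strand): CGGcttTaAcaaatataaactCCG
POX1, farther match (chrVII:107846-107868, minus strand): CGGagtTtAatcaactaataCCG
POX1, nearer match (chrVII:107883-107905, plus strand): CGGtcaTtAgcggctaatagCCG
ECI1 (chrXII:707191-707213, minus strand): CGGgcaTaAgaaatattattCCG
DCI1 (chrXV:675286-675309, minus strand): CGGctgTaAgcgcgctaaactCCG
FOX2, nearer match (chrXI:457305-457325, plus strand): CGGcgtTaAcaaatttccCCG
FOX2, farther match (chrXI:457337-457358, plus strand): CGGactTaAaactaggcttCCG
FAA2 (chrV:184355-184377, minus strand): CGGcgtTaAagactgacggtCCG
TES1 (chrX:468389-468411, plus strand): CGGtgtTtAtgccgtctcttCCG
PXA2 (chrXI:89035-89058, minus strand): CGGcgtTaAttacaactatcaCCG
PEX5 (chrIV:950388-950409, minus strand): CGGagtTaAtcgcgatgatCCG
PEX11 (chrXV:48756-48778, minus strand): CGGcatTtAtctcggagaacCCG
PEX6 (chrXIV:22754-22777, minus strand): CGGcgaTaAtcgtcaacacttCCG
PEX13 (chrXII:537116-537139, minus strand): CGGaaaTaAaaaaaatttggcCCG

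The 11 matches of the oxidation genes lay 108 to 290 bases before the start codon, and the 4 of the peroxins lay 113 to 154 bases before it. At *POT1*, *CTA1*, *DCI1* and the nearer site of *POX1*, the same bases also matched on the other strand. *CAT2*, *PXA1* and *ANT1* were the oxidation genes with no match in this window. The stress response element, AGGGG or its reverse complement CCCCT, was in the promoters of 1 of 12 oxidation genes (8.33%), 6 of 27 peroxins (22.2%) and 34.1% of all 5978.

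At 37 °C, *ths1-C268A* had lower levels than WT of 7 of the 12 oxidation genes and a higher level of none, and 5 missed the threshold. Over all genes tested, 26.4% were called, 12.1% lower and 14.2% higher. At an unadjusted p under 0.05 the counts of oxidation genes were 8 lower and 0 higher, beside 1253 lower and 1405 higher of all 6447 genes tested. For the oxidation genes, limma-voom on recovered fragments called 7 lower and 0 higher, beside 893 lower and 995 higher of all 6447 genes tested. The count of lower oxidation genes was 4 without WT replicate A, where *POX1*, *PXA1* and *ANT1* were not called. Over all genes tested, 394 were lower with that sample left out. The median log2 fold change of the 12 genes was -0.44, against -0.0025 over all genes tested. The samples of the strains did not overlap for 8 of the 12, each time with *ths1-C268A* below WT, against 21.1% of all genes in that direction and 45.6% in either. In a bulk culture, less RNA per cell and fewer cells with the RNA cannot be told apart.

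**Figure D1:**
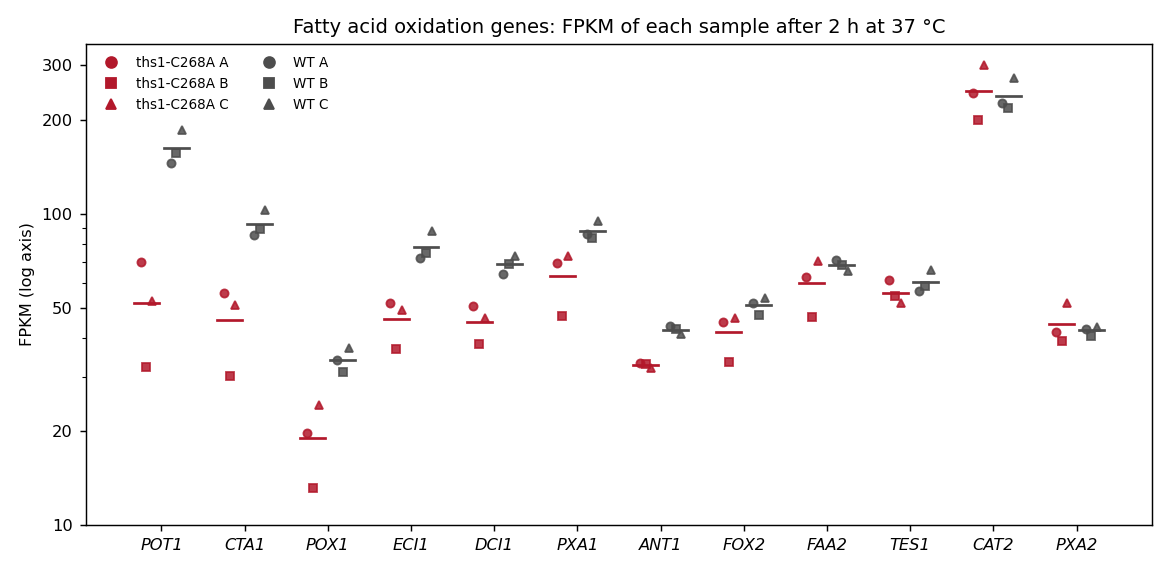
FPKM of the 12 oxidation genes (y axis, log scale) in each *ths1-C268A* sample (red, left of each pair) and WT sample (gray, right), with symbols for replicates A, B and C, bars for the means (n = 3) and genes in order of log2 fold change. For *POT1* the *ths1-C268A* samples lay between 32.3 and 70.1 FPKM, all below the WT samples at 146 to 186 FPKM, while for *CAT2* and *PXA2* the strains overlapped.

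The core of the spiral was lower at its first and last steps. *POT1* (YIL160C, chromosome IX, 40191 to 41444, minus strand), the thiolase that releases acetyl-CoA, had 70.1, 32.3 and 52.4 FPKM in *ths1-C268A* (A, B and C in this order, as for all values by sample), against 146, 157 and 186 FPKM in WT. The highest *ths1-C268A* sample was thus below every WT sample, and the *ths1-C268A* mean was 31.6% of the WT mean. On the log2 scale it differed by -1.70 (standard error 0.24, adjusted p = 0.00300), the lowest value of the 39 members. *POX1* (YGL205W, chromosome VII, 108158 to 110404, plus strand), the acyl-CoA oxidase that starts the cycle and makes hydrogen peroxide, had 19.8, 13.1 and 24.3 FPKM in *ths1-C268A*, against 33.9, 31.1 and 37.1 FPKM in WT. The strains did not overlap for *POX1* either, and its log2 fold change was -0.84 (standard error 0.20, adjusted p = 0.0183). The *POX1* call was lost without WT replicate A (adjusted p = 0.0575) or WT replicate C (adjusted p = 0.0703). *FOX2*, the multifunctional enzyme of the middle steps, had 44.9, 33.5 and 46.3 FPKM in *ths1-C268A*, against 51.7, 47.4 and 53.6 FPKM in WT. Its samples did not overlap, but its log2 fold change of -0.30 did not pass the test (95% interval -0.60 to -0.000385, adjusted p = 0.121). Both core genes that fell and *FOX2* carry the matches printed above.

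*CTA1* (YDR256C, chromosome IV, 968133 to 969680, minus strand), the peroxisomal catalase, had 55.8, 30.0 and 51.1 FPKM in *ths1-C268A*, against 85.6, 89.5 and 103 FPKM in WT. Every *ths1-C268A* sample was below every WT sample, and the strains differed by -1.05 on the log2 scale (standard error 0.21, adjusted p = 0.010). After *POT1*, this was the next lowest value among the members.

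Unsaturated fatty acids need isomerases that shift their double bonds before they can pass through the spiral, and both such genes were lower. *ECI1* (YLR284C, chromosome XII, 706198 to 707040) had 51.7, 36.9 and 48.9 FPKM in *ths1-C268A*, against 72.3, 74.7 and 88.3 FPKM in WT. *DCI1* (YOR180C, chromosome XV, 674352 to 675167), whose protein is related to Eci1, had 50.4, 38.0 and 46.1 FPKM in *ths1-C268A*, against 64.1, 69.2 and 73.5 FPKM in WT. The strains did not overlap for either gene. The log2 fold change was -0.77 for *ECI1* (standard error 0.14, adjusted p = 0.00694) and -0.62 for *DCI1* (standard error 0.12, adjusted p = 0.00796). *TES1*, the acyl-CoA thioesterase, was 55.8 ± 4.96 FPKM in *ths1-C268A* and 60.4 ± 4.83 FPKM in WT (SD, n = 3 each), with overlapping samples and a log2 fold change of -0.11 that did not pass (95% interval -0.34 to 0.11). *TES1* overlaps YJR020W on the opposite strand over 281 bp, an ORF at a mean of 0.595 FPKM.

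Genes that bring substrates in and send products out were mixed. *ANT1* (YPR128C), the carrier of adenine nucleotides in the peroxisomal membrane, had 33.1, 32.8 and 31.9 FPKM in *ths1-C268A*, against 43.8, 42.6 and 41.0 FPKM in WT. The 3 samples of each strain were close together, and the log2 fold change of -0.37 passed the test (standard error 0.081, adjusted p = 0.0144). *ANT1* lost its call without WT replicate A (adjusted p = 0.0615) or WT replicate B (adjusted p = 0.0758). *PXA1* and *PXA2* encode the partner subunits of the transporter that imports long-chain acyl-CoA. *PXA1* had 69.4, 46.9 and 73.3 FPKM in *ths1-C268A*, against 86.3, 83.6 and 95.2 FPKM in WT (log2 fold change -0.50, standard error 0.16, adjusted p = 0.0488). *PXA2* had 41.6, 38.9 and 51.8 FPKM in *ths1-C268A*, against 42.8, 40.6 and 43.4 FPKM in WT (log2 fold change 0.051, 95% interval -0.21 to 0.31). *PXA1* stood at the edge of the threshold, and it did not pass without any 1 of the WT samples (adjusted p = 0.102 to 0.149), without *ths1-C268A* replicate B (log2 fold change -0.30, adjusted p = 0.0578) with a pseudocount of 0.1 (adjusted p = 0.0506), without the filter (adjusted p = 0.0621) or without the variance trend (adjusted p = 0.0832). The difference between *PXA1* and *PXA2* was not tested.

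*FAA2*, which activates medium-chain fatty acids inside the peroxisome, was 60.0 ± 12.3 FPKM in *ths1-C268A* and 68.5 ± 2.90 FPKM in WT (SD, n = 3 each). *CAT2*, the carnitine acetyltransferase that passes acetyl units on to mitochondria, was the highest of the 12 in both strains, at 248 ± 50.4 FPKM in *ths1-C268A* and 240 ± 29.3 FPKM in WT (SD, n = 3 each). Neither passed the test, with 95% intervals of the log2 fold change of -0.53 to 0.12 for *FAA2* and -0.31 to 0.38 for *CAT2*.

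**Figure D2:**
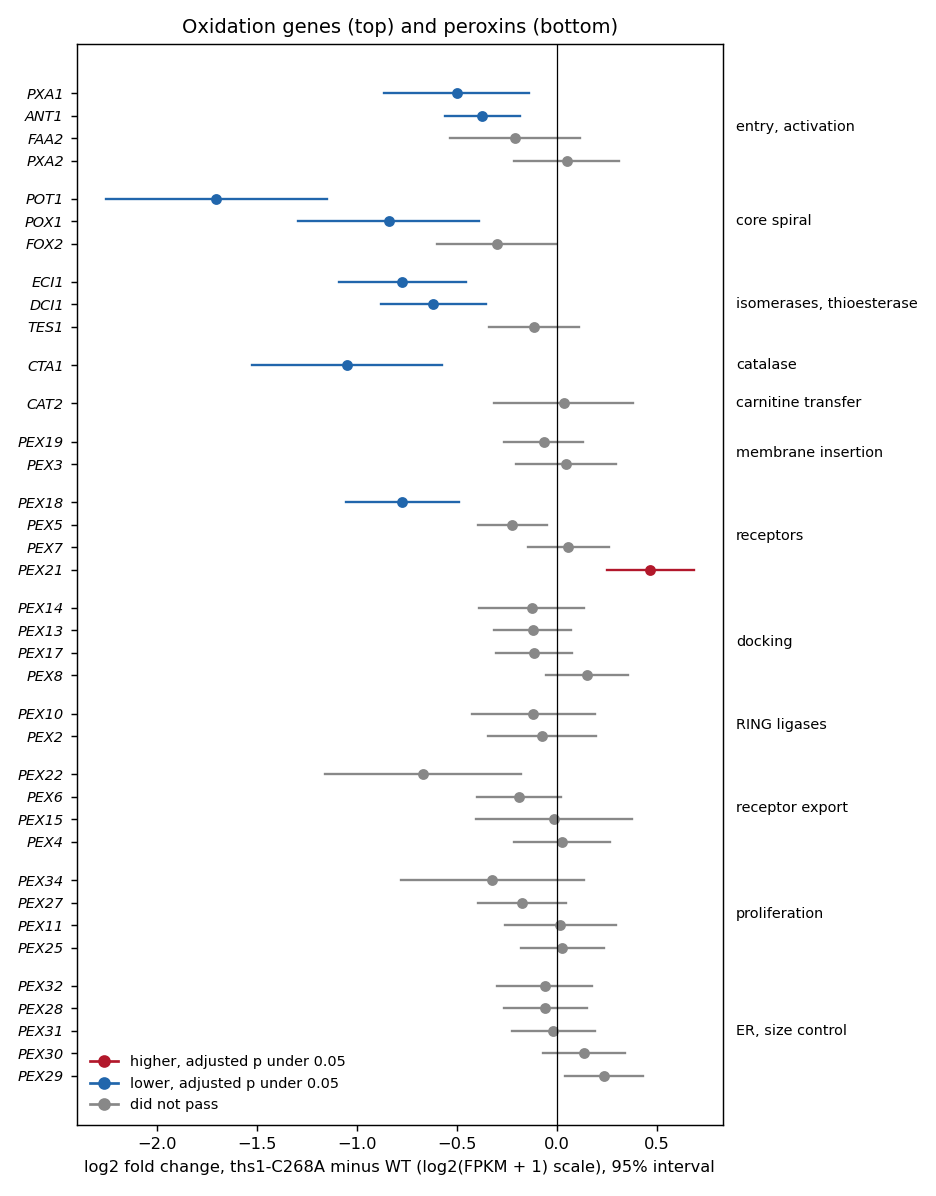
Log2 fold change of *ths1-C268A* over WT on the log2(FPKM + 1) scale (x axis) for the 12 oxidation genes (top) and 25 of the 27 peroxins (bottom), grouped by role. Points are estimates, lines 95% intervals from limma (3 samples against 3), blue lower, red higher and gray not past an adjusted p of 0.05, and most oxidation genes lie left of 0 while most peroxin intervals cross it.

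The peroxins stayed near the level of all genes. Of 27, 2 were higher in *ths1-C268A* and 1 was lower, while 24 missed the threshold, which is below the 14.2% and 12.1% called over all genes. Their median log2 fold change was -0.056, with 16 below 0 and 11 above. For 22 of the 24 that did not pass, the 95% interval of the log2 fold change lay within 0.5 of 0, and the exceptions were *PEX22* and *PEX34*. Samples of the strains did not overlap for 4 peroxins that were lower and 3 that were higher, against 21.1% and 24.5% of all genes. *PEX3* had the highest mean level of them, 149.9 FPKM in *ths1-C268A* and 143.9 FPKM in WT.

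The 3 peroxins that passed included a pair with a shared role and opposite directions. *PEX18* and *PEX21* encode co-receptors that act with Pex7, the receptor of the N-terminal targeting signal PTS2, and either can serve that import route. *PEX18* (YHR160C, chromosome VIII, 419221 to 420072) had 36.4, 25.9 and 32.5 FPKM in *ths1-C268A*, against 52.8, 55.0 and 54.7 FPKM in WT. *PEX21* (YGR239C, chromosome VII, 969187 to 970053) had 75.2, 60.7 and 67.2 FPKM in *ths1-C268A*, against 47.9, 48.8 and 48.7 FPKM in WT. In WT the pair was thus nearly level, with *PEX18* slightly above *PEX21* in each sample, and in each *ths1-C268A* sample *PEX21* was above *PEX18*. The log2 fold change was -0.77 for *PEX18* (standard error 0.12, adjusted p = 0.00463) and 0.47 for *PEX21* (standard error 0.094, adjusted p = 0.0104), and both kept their side of the threshold when each sample was left out in turn (adjusted p up to 0.0484 for *PEX21*). *PEX7* itself was 81.9 ± 7.35 FPKM in *ths1-C268A* and 78.4 ± 2.67 FPKM in WT (SD, n = 3 each) and did not pass. Pot1, the thiolase, is the classical cargo of this route in yeast.

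*PEX5*, the receptor of the C-terminal signal PTS1 that most of the matrix enzymes carry, had 105, 96.5 and 105 FPKM in *ths1-C268A*, against 121, 117 and 120 FPKM in WT. Its samples did not overlap, but the log2 fold change of -0.22 did not pass the test (95% interval -0.39 to -0.048, adjusted p = 0.0616). It passed once protein-coding fragments were scaled to the same total (adjusted p = 0.0164) and with a correction for coding length (adjusted p = 0.0219). *PEX9*, a receptor related to Pex5 that is known to be induced by oleate, is listed in the table as YMR018W without a name and so is not a member. YMR018W had 17.1, 13.3 and 17.5 FPKM in *ths1-C268A*, against 23.2, 22.5 and 22.2 FPKM in WT. *PEX9* was lower by a log2 fold change of -0.49 (adjusted p = 0.0258), and was not called when any 1 of the WT samples was left out (adjusted p = 0.0771 to 0.0909).

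**Figure D3:**
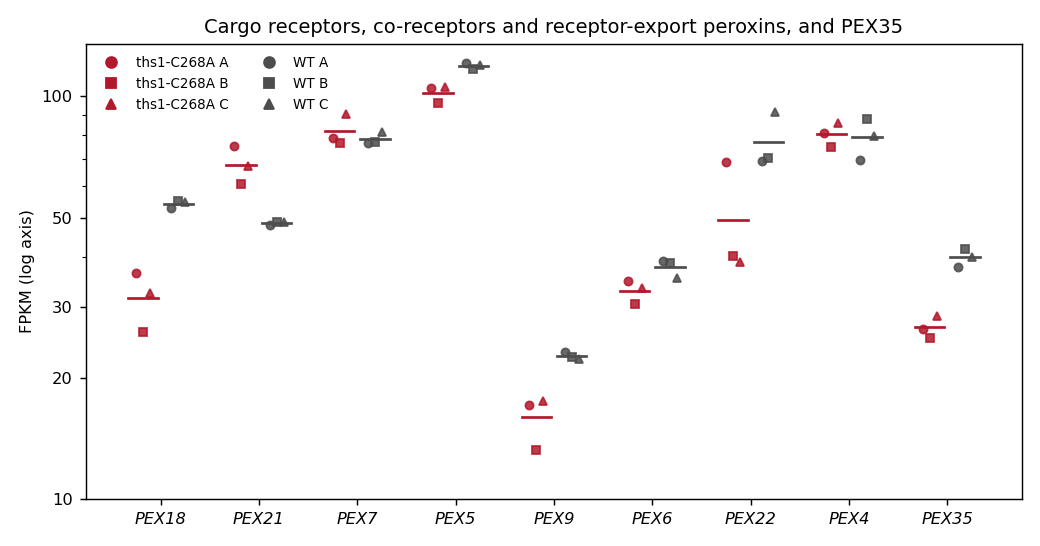
FPKM (y axis, log scale) of the import receptors and co-receptors, of *PEX6*, *PEX22* and *PEX4* of receptor export and of *PEX35* in each *ths1-C268A* sample (red, left) and WT sample (gray, right), with bars for the means (n = 3). *PEX18* and *PEX21* change places between the strains, and *PEX22* in *ths1-C268A* replicate A stands at 68.9 FPKM, beside 40.2 and 38.7 FPKM in replicates B and C.

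After import, receptors are ubiquitinated and drawn out of the membrane with the help of the ATPase Pex6. *PEX6* had 34.7, 30.5 and 33.5 FPKM in *ths1-C268A*, against 38.9, 38.6 and 35.4 FPKM in WT. Every *ths1-C268A* sample was below every WT sample. The log2 fold change of *PEX6* was -0.19 and did not pass (adjusted p = 0.158). It passed with the coding length correction (log2 fold change -0.37, adjusted p = 0.0326) and with protein-coding fragments scaled to the same total. *PEX15*, which anchors Pex6 at the membrane, had a log2 fold change of -0.013 with a 95% interval of -0.40 to 0.38.

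*PEX22*, the membrane anchor of the ubiquitin-conjugating enzyme Pex4, had 68.9, 40.2 and 38.7 FPKM in *ths1-C268A*, against 69.0, 70.2 and 91.6 FPKM in WT. *ths1-C268A* replicate A lay next to the WT samples and the other two well below them. The log2 fold change of -0.67 just missed the threshold (standard error 0.21, adjusted p = 0.0501). *PEX22* was called lower with a pseudocount of 5, a filter at 10 FPKM, median-ratio scaling, the same total of protein-coding fragments or limma-voom (adjusted p = 0.0254 to 0.0495). Without *ths1-C268A* replicate A its log2 fold change was -0.93 (adjusted p = 0.00457). When any other 1 sample was left out, *PEX22* was not called (adjusted p = 0.0862 to 0.163). Nor was it called without the variance trend (adjusted p = 0.0865) or with the coding length correction (adjusted p = 0.0690). *PEX4* was 80.5 ± 5.64 FPKM in *ths1-C268A* and 79.2 ± 9.24 FPKM in WT (SD, n = 3 each). *PEX2* and *PEX10*, which encode RING ubiquitin ligases, had log2 fold changes of -0.073 and -0.12, and neither passed the test or had an unadjusted p under 0.05. *PEX2* overlaps YJL211C on the opposite strand over 282 bp, at a mean of 13.1 FPKM.

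The docking and translocation genes *PEX13*, *PEX14*, *PEX17* and *PEX8* had log2 fold changes of -0.12 to 0.15, and *PEX3* and *PEX19*, which insert membrane proteins, had 0.049 and -0.065. None of these 6 passed the test (0 also at an unadjusted p under 0.05). *PEX11*, which drives the division of peroxisomes and whose promoter holds a match to the oleate element, had 75.3, 72.7 and 88.2 FPKM in *ths1-C268A*, against 73.0, 69.9 and 90.8 FPKM in WT. Its log2 fold change was 0.019 (95% interval -0.26 to 0.30), and how it differs from oxidation genes with a match was not tested. Its relatives *PEX25* and *PEX27* had 0.029 and -0.17. *PEX34*, a short gene of the same process, had 65.2, 44.3 and 34.6 FPKM in *ths1-C268A*, against 52.4, 60.0 and 62.7 FPKM in WT. Those *ths1-C268A* samples spanned the whole WT range, and the log2 fold change of -0.32 did not pass (95% interval -0.78 to 0.14), but it was -0.56 (adjusted p = 0.0182) without *ths1-C268A* replicate A.

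*PEX28* to *PEX32* encode membrane proteins that control the size and number of peroxisomes, several of them at the ER, and their log2 fold changes ran from -0.059 for *PEX32* to 0.24 for *PEX29*. *PEX29* had 97.0, 89.6 and 106 FPKM in *ths1-C268A*, against 84.0, 81.5 and 81.6 FPKM in WT, and did not pass (adjusted p = 0.0706) except without *ths1-C268A* replicate B (adjusted p = 0.0444). YGR168C, which RefSeq names *PEX35* but the table leaves without a name, was lower by a log2 fold change of -0.56 (adjusted p = 0.00527), with 26.5, 25.2 and 28.5 FPKM in *ths1-C268A*, against 37.7, 41.8 and 39.9 FPKM in WT. Thus both peroxins that the naming rule missed, *PEX9* and *PEX35*, were lower.

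**Figure D4:**
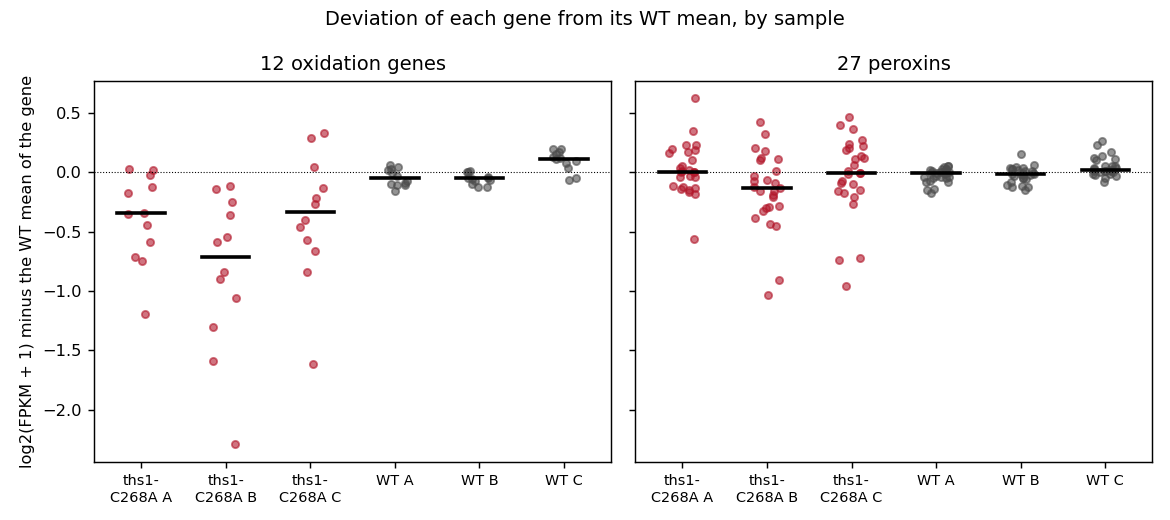
Deviation of each gene from its WT mean on the log2(FPKM + 1) scale (y axis) in each sample (x axis, *ths1-C268A* in red, WT in gray), for 12 oxidation genes (left) and 27 peroxins (right), with bars for the medians. The oxidation genes lie lowest in *ths1-C268A* replicate B, with a median of -0.71, and the peroxins center near 0 in every sample.

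Among the *ths1-C268A* samples, replicate B had the lowest levels of oxidation genes. It was the lowest of the 6 samples for 10 of 12 genes, and replicate C was the lowest for the other 2. Relative to the WT mean, the median of the 12 genes was -0.35, -0.71 and -0.33 on the log2 scale in *ths1-C268A*, and -0.051, -0.051 and 0.12 in WT, in the order A, B, C. All 12 genes were below their WT mean in *ths1-C268A* replicate B, 10 were in replicate A and 9 in replicate C. Without replicate B, 6 of the 12 were still called lower, with a median log2 fold change of -0.34, beside 527 lower of all 6447 genes tested. For the peroxins the same medians were 0.0059, -0.14 and -0.0031 in *ths1-C268A*, and -0.0087, -0.018 and 0.020 in WT. The coefficient of variation of an oxidation gene had a median of 18.8% among *ths1-C268A* samples and 7.43% among WT samples, and that of a peroxin 8.97% among *ths1-C268A* samples and 3.40% among WT samples.

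Fold change in these libraries moved with gene length, with a Spearman's rho of 0.371 over 6176 protein-coding genes, all from the same libraries and so no independent replicates. Long genes tended to be higher in *ths1-C268A*, and the oxidation genes are long, with a median coding length of 1780 bp, against 1152 bp for the peroxins and 1098 bp for all genes tested. With a correction for coding length, 7 oxidation genes were lower, with a median log2 fold change of -0.51, and the median of the peroxins was -0.012. Over all 6447 genes tested, that correction called 804 higher and 737 lower. With protein-coding fragments scaled to the same total, the median of all genes tested was -0.12, that of the oxidation genes -0.55 and that of the peroxins -0.17. Over all genes, that scaling called 524 higher and 1285 lower, where the deposited scale called 916 higher and 783 lower.

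Among 8 regulators of these genes, 1 was higher (12.5%, near the 14.2% of all genes) and 7 did not pass, with 4 higher and 0 lower at an unadjusted p under 0.05. At that cut, 1405 of the 6447 genes tested were higher and 1253 lower. *MIG1*, a repressor that acts in glucose, had 180, 199 and 198 FPKM in *ths1-C268A*, against 145, 136 and 156 FPKM in WT (log2 fold change 0.40, adjusted p = 0.0142). It was not called without WT replicate A (adjusted p = 0.0541) or WT replicate B (adjusted p = 0.0799). The activators of the oleate element had log2 fold changes of 0.079 for *OAF1* (95% interval -0.10 to 0.26) and 0.32 for *PIP2* (adjusted p = 0.0705). *PIP2*, whose own promoter holds a match to the element, had 28, 32.8 and 36 FPKM in *ths1-C268A*, against 27.1, 25.7 and 23.8 FPKM in WT, each *ths1-C268A* sample above each WT sample. It was called higher without *ths1-C268A* replicate A (adjusted p = 0.0223) and with limma-voom. Of the other regulators, *OAF3* had 0.27 (adjusted p = 0.0735) and *SNF1*, the kinase that lifts glucose repression, had 0.23 (adjusted p = 0.0903). Both were also called higher without *ths1-C268A* replicate A. The 8 regulators have a median coding length of 2792 bp. With the coding length correction, *OAF3* had 0.11 (adjusted p = 0.32) and *OAF1* -0.10 (adjusted p = 0.433). Over the alternatives, the log2 fold change of *PIP2* went down to 0.14 and that of *SNF1* to 0.11, with adjusted p up to 0.355 and 0.332. *ADR1*, a further activator of these genes, had a log2 fold change of -0.040 (95% interval -0.30 to 0.22).

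Among 14 other peroxisomal enzymes, 5 fell, 5 rose and 4 missed the threshold (35.7% in each direction, beside 12.1% lower and 14.2% higher over all genes). *SPS19*, the reductase needed for some unsaturated fatty acids, had 16, 8.68 and 11.2 FPKM in *ths1-C268A*, against 17.5, 20.2 and 22.3 FPKM in WT (log2 fold change -0.73, adjusted p = 0.0329). *IDP3*, which supplies that reductase with NADPH, had 30.8, 17.7 and 32.4 FPKM in *ths1-C268A*, against 40.7, 39.9 and 44.5 FPKM in WT (log2 fold change -0.65, adjusted p = 0.0458). Both have a match to the oleate element, and in both *ths1-C268A* replicate B was lowest, as it was for most of the oxidation genes. The others that fell were *LPX1*, a lipase (log2 fold change -0.65, adjusted p = 0.0106), *PCD1*, a hydrolase of coenzyme A (-0.50, adjusted p = 0.0175), and *MDH3*, malate dehydrogenase (-0.38, adjusted p = 0.0444). In each of them *ths1-C268A* replicate B was lowest too, though *LPX1* and *PCD1* hold no match to the element, while *MDH3* does. Among the *ths1-C268A* samples, replicate B was also the lowest for 17 of 27 peroxins.

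These calls were not all firm. *SPS19* was not called without any 1 of the WT samples (adjusted p = 0.0602 to 0.113) or without *ths1-C268A* replicate B or C (adjusted p = 0.0775 and 0.0761), nor was *IDP3* without any 1 of the WT samples (adjusted p = 0.102 to 0.135). *MDH3* was not called without WT replicate B or C or *ths1-C268A* replicate B or C (adjusted p = 0.0943 to 0.134), nor *PCD1* without WT replicate B or C (adjusted p = 0.0637 and 0.0703). Without the variance trend, the adjusted p was 0.0519 for *SPS19*, 0.0775 for *IDP3* and 0.0737 for *MDH3*, and without the filter it was 0.0614 for *IDP3* and 0.0511 for *MDH3*. *SPS19* overlaps YNL203C on the opposite strand over 473 bp, at a mean of 9.04 FPKM.

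Among the 5 that rose, *LYS1*, the last enzyme of lysine synthesis, had 180, 216 and 182 FPKM in *ths1-C268A*, against 65.6, 61.2 and 64.3 FPKM in WT (log2 fold change 1.58, adjusted p = 6.9e-05). *STR3*, a cystathionine lyase of methionine synthesis, had 38.0, 60.6 and 42.5 FPKM in *ths1-C268A*, against 21.0, 18.7 and 14.4 FPKM in WT (log2 fold change 1.32, adjusted p = 0.00327). *AAT2*, aspartate aminotransferase, was higher by 0.55 (adjusted p = 0.00356), *CIT2*, citrate synthase, by 0.60 (adjusted p = 0.0239) and *PXP2*, named only in RefSeq, by 0.41 (adjusted p = 0.00893). *CIT2* was not called without WT replicate A or B or *ths1-C268A* replicate C (adjusted p = 0.0571 to 0.105), or with protein-coding fragments at the same total (adjusted p = 0.0513).

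Outside the peroxisome, 1 of 4 further genes of fatty acid uptake and activation was higher (25%, from a single gene), *FAA1* (log2 fold change 0.29, adjusted p = 0.0407). It was not called when any 1 sample other than *ths1-C268A* replicate A was left out (adjusted p = 0.0708 to 0.175), with the coding length correction (log2 fold change 0.17, adjusted p = 0.168), with protein-coding fragments at the same total (adjusted p = 0.138) or with limma-voom (adjusted p = 0.0537). Of 8 partners in the carnitine shuttle, the glyoxylate cycle and acetyl-CoA synthesis, 1 was higher (12.5%, beside 14.2% of all genes), *CRC1*, the carnitine carrier of mitochondria, with 256, 173 and 182 FPKM in *ths1-C268A*, against 113, 116 and 164 FPKM in WT (log2 fold change 0.63, adjusted p = 0.0369). *CRC1* was not called without WT replicate A or B or *ths1-C268A* replicate A or C (adjusted p = 0.0561 to 0.121), with protein-coding fragments at the same total (adjusted p = 0.0791) or without the variance trend (adjusted p = 0.0683). The promoters of *CRC1* and of *YAT1*, another of the 8 partners, hold a match to the oleate element. *YAT1* did not pass (log2 fold change -0.38, adjusted p = 0.200). *ICL1* and *MLS1*, of the glyoxylate cycle, had log2 fold changes of 0.0021 and -0.0074 with 95% intervals of -0.37 to 0.37 and -0.32 to 0.31. Of 8 genes of peroxisome inheritance, fission and pexophagy, 1 was also higher (12.5%), *ATG11*, a scaffold of selective autophagy (log2 fold change 0.36, adjusted p = 0.0243), and none was lower (0 also at an unadjusted p under 0.05). *ATG11* was not called without any 1 of the WT samples or without *ths1-C268A* replicate C (adjusted p = 0.0505 to 0.109), nor with the coding length correction (log2 fold change 0.16, adjusted p = 0.237) or the same total of protein-coding fragments (adjusted p = 0.0697). *ATG36*, the receptor of pexophagy, had a log2 fold change of 0.19 (95% interval -0.096 to 0.48).

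Set beside their promoters, 5 of the 9 oxidation genes with a match were lower, as were 2 of the 3 without one, *PXA1* and *ANT1*. None of the 4 peroxins with a match was called by limma or, apart from *PEX5*, had an unadjusted p under 0.05, while *PEX18* had no match. The median log2 fold change was -0.62 for the 9 oxidation genes with a match and -0.15 for the 4 peroxins with one. *POT1*, *CTA1*, *POX1* and *DCI1*, whose matches read on both strands, had values of -1.70, -1.05, -0.84 and -0.62, a grouping made after the values were seen. *ECI1*, whose match reads on the minus strand only, was also lower, at -0.77. *FOX2*, *FAA2*, *TES1* and *PXA2* held a match and did not pass. A match in these letters is a description of the sequence, and nothing is drawn from it about binding of a factor.

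**Figure D5:**
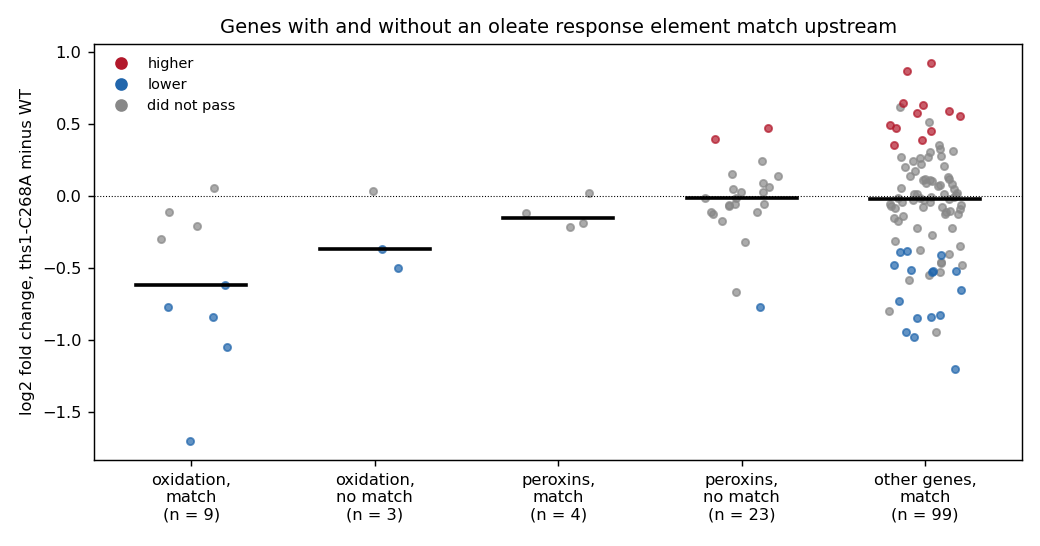
Log2 fold change of *ths1-C268A* over WT (y axis) for genes with and without a match to the oleate response element in the 500 bases before the start codon (x axis), with bars for the medians and colors for the calls. The median is -0.62 for 9 oxidation genes with a match, -0.15 for 4 peroxins with a match and -0.026 for 99 other genes with a match.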

How the data were processed

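RNA of 3 *ths1-C268A* and 3 WT samples was analysed. The authors deposited FPKM per gene with coordinates and coding lengths, and the submitters' processing notes name HISAT2. The counting tool, strandedness and poly(A) selection were not given in the sources used here, and without strand the fragments of overlapping genes cannot be told apart. FPKM times length gave whole fragments, within 0.01, for 100% of values above 0, and fragments outside the table made up 10.6 to 13.4% of the denominator in *ths1-C268A* and 18.3 to 18.7% in WT. At a floor of 3 counts, the limit for a gene without fragments is 0.157 to 0.181 CPM, which covers counting error only. No 2 samples of a strain agreed within sampling noise (chi-square per degree of freedom 7.78 to 53.6). All 39 members had the coordinates of R64.

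The main test was limma 3.58.1 in R 4.3.3, with a variance trend, on log2(FPKM + 1), two-sided, with strain as the only term. Fold changes on that scale understate changes of low genes. The scripts were tested on simulated data. The members, the neighbouring lists and the naming rule (all members; of each neighbouring list, the genes that pass, otherwise up to 4 with the smallest p) were chosen with earlier results of these data known. Lists came from textbook knowledge. Genes without a name in the table took their RefSeq name. Promoters came from R64 in RefSeq. Protein sequences were not used here. Of the 27 peroxins, 2 are counted but not reported by name here.

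As alternatives, the pseudocount was 0.1 or 5, the filter was left out or raised to 10 FPKM, samples were scaled by median ratios or to the same total of protein-coding fragments, and the variance trend was dropped. Further ones were limma-voom on recovered fragments with median-ratio factors (chosen after seeing the data in place of the TMM factors planned), replicate letters as a block, a loess correction for coding length (span 0.5), each sample left out in turn and an adjusted p under 0.01.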

Additional observations from a re-analysis of the deposited data

How the results depend on the processing

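Among the oxidation genes, the count of lower genes stayed between 6 and 8 under pseudocounts, filters, scalings, the variance trend, limma-voom, the replicate block and the length correction, and no oxidation gene was called higher under any of them. It was 4 to 7 with each sample left out, with the lowest count without WT replicate A, and 3 at an adjusted p under 0.01. Their median log2 fold change was -0.50 to -0.34 with each sample left out. Lower peroxins numbered 2 with a pseudocount of 5, a filter at 10 FPKM, median-ratio scaling, limma-voom or the replicate block with the length correction, 3 with the length correction alone, 4 with protein-coding fragments at the same total, and 1 to 3 with each sample left out. Higher peroxins numbered 1 with the replicate block, with the length correction or with both, 0 at an adjusted p under 0.01, and 1 to 3 with each sample left out. The peroxin median was -0.17 with an equal total and -0.093 to -0.018 with each sample left out. Over all genes, 296 were higher and 248 lower at an adjusted p under 0.01, and 524 and 1285 with an equal total. With each sample left out, 356 to 1088 were higher and 290 to 1057 lower. The cause of these shifts was not tested.

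The replicate letters share no stated batch, and same-lettered samples deviated with correlations of -0.23, 0.062 and -0.012, so that no pairing was assumed. With the letters as a replicate block, 683 genes were higher and 593 lower, and 7 oxidation genes were lower. Of the neighbouring genes, *SPS19* (adjusted p = 0.0509), *MDH3* (adjusted p = 0.0698) and *FAA1* (adjusted p = 0.0721) were not called with this replicate block. The share of oxidation promoters with an oleate element match was 50% in the window of 250 bases upstream to 50 after the start, against 0.903% of all promoters. The planned DESeq2 and edgeR fits and TMM factors were not run. The deposited unit is FPKM, and the fragments recovered from it were tested with limma-voom in their place. A member had 323 to 13003 fragments in a sample, and their counting error was not compared with the spread among the 3 samples of a strain.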

Other observations

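The oleate element was also read across the genome. Of 99 other genes tested that held a match in the 500 bases before the start codon, 16 (16.2%) were lower in *ths1-C268A* and 12 (12.1%) were higher, near the 12.1% and 14.2% of all genes, with a median log2 fold change of -0.026. Neighbouring genes transcribed away from each other can share a match, so that these 99 genes held 90 distinct matches. The 16 that were lower included *SPS19*, *IDP3* and *MDH3* of the peroxisome, the hexokinase gene *HXK1* (log2 fold change -0.52) and *TPS2* of trehalose synthesis (-0.48), the last 2 named after their values were seen. The 12 that were higher included *CRC1*.

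Matches of 5 members also lie upstream of a neighbour. *BNR1*, a formin gene that shares the match of *POT1*, had 19.6, 21.9 and 21.7 FPKM in *ths1-C268A*, against 33.2, 30.4 and 28.1 FPKM in WT, and was lower in the limma fit (log2 fold change -0.51, adjusted p = 0.0106). *CHC1*, which shares a match with *POX1*, had a log2 fold change of 0.28, and *NNT1*, beside *ECI1*, of -0.040. *PRP28*, beside *PEX5*, had 0.17 and *PSF3*, beside *PEX11*, had -0.13, and none of these 4 was called. All 5 genes were named after their values were seen.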
